A study of Mus musculus with 20 samples.

Results

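The genes described here are 9 that mark tissue macrophages or are made by them, taken by name from a table of 55471 genes: C1qa, C1qb, C1qc, Csf1r, Adgre1, Mrc1, Cd68, Lyz2 and Cd14. All 9 were found in the table by their Ensembl identifiers, and their levels were followed in control and chronically inflamed skin and pancreas. Macrophages live in most tissues, where they engulf dying cells and microbes, and they depend on the CSF1 receptor for survival. They are also a main source of C1q, the recognition molecule of the classical complement pathway, which is built from the 3 chains encoded by C1qa, C1qb and C1qc and opens the cascade together with the proteases C1r and C1s. In healthy mouse skin most macrophages lie in the dermis, while the epidermis holds Langerhans cells, and in the pancreas macrophages lie between the acini and around the ducts.

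RNA was sequenced from wild-type (WT) mice in 4 groups of 5 libraries. For skin, the back was painted 3 times per week for 22 days with DNFB, a contact allergen, challenged at 0.25% in acetone with olive oil, or with the acetone vehicle alone, in mice 4 to 6 weeks old, and the epidermis was taken. For pancreas, mice received caerulein, a peptide that overstimulates the enzyme-secreting acinar cells, at 50 μg/kg in PBS by 6 hourly intraperitoneal injections per day, on 3 days per week for 3 weeks, or PBS alone. The labels call the skin samples epithelial skin and number the libraries from 1 to 20, and nothing says whether each library came from a separate mouse, so p-values measure only the spread between these libraries. In a bulk sample, fewer cells of a type and less RNA per cell cannot be told apart.

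Library totals ranged from 791491 to 2232039 counts, but 11 predicted genes with satellite-like sequence took 37.8% to 94.3% of them. The counts outside these genes, here called usable depth, ranged from 70021 to 1074202. Acetone libraries 11 and 12 stood apart, with usable depths of 1074202 and 938931 against 93048 to 153197 in acetone libraries 1, 2 and 3. They held 3550 and 3764 counts of the 9 genes, against 13, 34 and 18 in the other acetone libraries, so the tests of the 9 genes in skin are given with and without them. Keratinocyte markers reached 790 to 10118 CPM (counts scaled to a library of 1000000) of usable depth in the 10 skin libraries and 9.90 to 102 in the pancreas libraries, and acinar markers reached 5981 to 256262 in pancreas and 3.20 to 120 in skin.

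The sequences bear on how far these genes can be told apart by reads and on what the promoters of neighbouring genes share. C1qa (ENSMUSG00000036887), C1qb (ENSMUSG00000036905) and C1qc (ENSMUSG00000036896) lie side by side on the minus strand of chromosome 4 of GRCm38, at chr4:136895917-136898803, chr4:136880129-136886187 and chr4:136889804-136893065. Promoter windows of 300 bases from RefSeq (GRCm38.p6) were used for 5 of the 9 genes, Lyz2, Cd68, C1qb, C1qc and Mrc1. Adgre1 and C1qa had no window, and Csf1r and Cd14 were left out here, so the motif count below does not cover them. The motif GAGGAA, the core of the PU box that binds the myeloid factor PU.1, was searched on both strands. It occurred in 4 of these 5 windows and in 28.3% of all 32851 windows. The bases upstream of the start of C1qb (chr4:136886201-136886450) and C1qc (chr4:136893066-136893164) follow, from the minus strand, with each match in capitals, and TTCCTC is the motif on the other strand.
C1qb promoter: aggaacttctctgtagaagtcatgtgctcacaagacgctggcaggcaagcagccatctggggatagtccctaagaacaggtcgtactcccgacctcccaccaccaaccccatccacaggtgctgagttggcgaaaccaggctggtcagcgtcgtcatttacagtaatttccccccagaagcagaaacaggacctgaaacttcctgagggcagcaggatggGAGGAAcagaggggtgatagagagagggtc
C1qc promoter: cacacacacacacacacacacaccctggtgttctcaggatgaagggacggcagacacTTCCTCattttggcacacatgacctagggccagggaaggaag
A match is a description of these letters and not a site of binding.

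Lyz2, which encodes the lysozyme of macrophages and other myeloid cells, has a near copy, Lyz1, the lysozyme of intestinal Paneth cells. Lyz2 (ENSMUSG00000069516, chr10:117277331-117282321) and Lyz1 (ENSMUSG00000069515, chr10:117287797-117292868) are neighbours on the minus strand of chromosome 10. Their coding sequences of 444 bases differed at 22 positions, an identity of 95.0%, and 15.4% of all 50-base words of Lyz2 transcripts also occur in Lyz1. A stretch of the coding sequence, positions 61 to 120 counted from the start codon, shows 9 of the mismatches in capitals.
Lyz2 coding: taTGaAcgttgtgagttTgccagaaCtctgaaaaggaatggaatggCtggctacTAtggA
Lyz1 coding: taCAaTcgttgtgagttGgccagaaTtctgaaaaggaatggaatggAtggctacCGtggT
Reads from the shared words were divided between the genes by the quantification, so the split between Lyz1 and Lyz2 is uncertain.

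In skin, the C1q genes were at or near 0 in 3 acetone libraries and abundant in the other two. C1qa held 0, 0 and 0 counts in acetone libraries 1, 2 and 3, and 240 and 319 in libraries 11 and 12. In DNFB libraries 4, 5, 6, 13 and 14 it held 3, 2, 11, 18 and 2 counts. All DNFB libraries therefore lay between the low and the high acetone libraries. C1qb was found in every skin library, with 2, 4, 4, 389 and 482 counts in acetone and 8, 5, 25, 29 and 10 with DNFB. C1qc held 0, 2, 0, 149 and 304 counts in acetone and 1, 7, 3, 1 and 2 with DNFB. In normalized CPM (CPM with the library size scaled by TMM, a factor that aligns most genes between libraries), C1qb was 46.1 ± 55.1 in acetone-treated and 9.02 ± 2.67 in DNFB-treated skin (SD, n = 5 each). The acetone SD exceeded its mean for each of the 3 chains, while the DNFB libraries were close together for C1qb.

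Csf1r, the receptor for the growth factors CSF1 and IL-34 that macrophages and Langerhans cells need, was also highest in acetone libraries 11 and 12. It held 0, 6, 0, 298 and 391 counts in acetone-treated skin and 9, 4, 8, 30 and 7 in DNFB-treated skin, and in normalized CPM acetone library 2 also lay above the DNFB range of 2.99 to 11.8. Adgre1, which encodes the surface protein F4/80, held 0, 0, 1, 77 and 83 counts in acetone and 3, 3, 8, 5 and 3 with DNFB. Mrc1, the mannose receptor CD206 of resident macrophages, held 0, 2, 7, 119 and 107 counts in acetone and 5, 6, 12, 30 and 11 with DNFB. For these 3 genes too, acetone libraries 11 and 12 lay above every DNFB library, in counts and in normalized CPM. Cd68, a lysosomal glycoprotein of phagocytes, held 1, 0, 0, 88 and 81 counts in acetone and 3, 2, 21, 39 and 12 with DNFB, and its normalized CPM was nearly the same in both groups, at 8.43 ± 10.3 and 8.34 ± 5.94 (SD, n = 5 each).

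Lyz2 had the most counts of the 9 genes over the skin libraries together, but over the DNFB libraries it held 375 against 522 of Cd14. Lyz2 held 6, 18, 6, 2117 and 1942 counts in acetone libraries 1, 2, 3, 11 and 12, and 22, 38, 112, 133 and 70 with DNFB. This equals 10.7 to 522 normalized CPM in acetone-treated skin (median 51.1) and 13.1 to 78.1 with DNFB (median 52.1). The medians were alike, and the acetone range enclosed the DNFB range. Lyz1 held 0, 0, 1, 219 and 203 counts in acetone and at most 2 in any DNFB library.

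Cd14 showed another pattern. It encodes the co-receptor that hands bacterial lipopolysaccharide to TLR4, and it is made by monocytes, macrophages and neutrophils. It held 4, 2, 0, 73 and 55 counts in acetone and 16, 20, 55, 216 and 215 with DNFB. In normalized CPM the acetone libraries stood at 12.9, 5.68, 0, 14.2 and 14.8, and the DNFB libraries at 9.53, 34.0, 20.6, 84.6 and 240. Acetone libraries 11 and 12 were not set apart for this gene, and 4 of the 5 DNFB libraries lay above every acetone library.

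**Figure D1:**
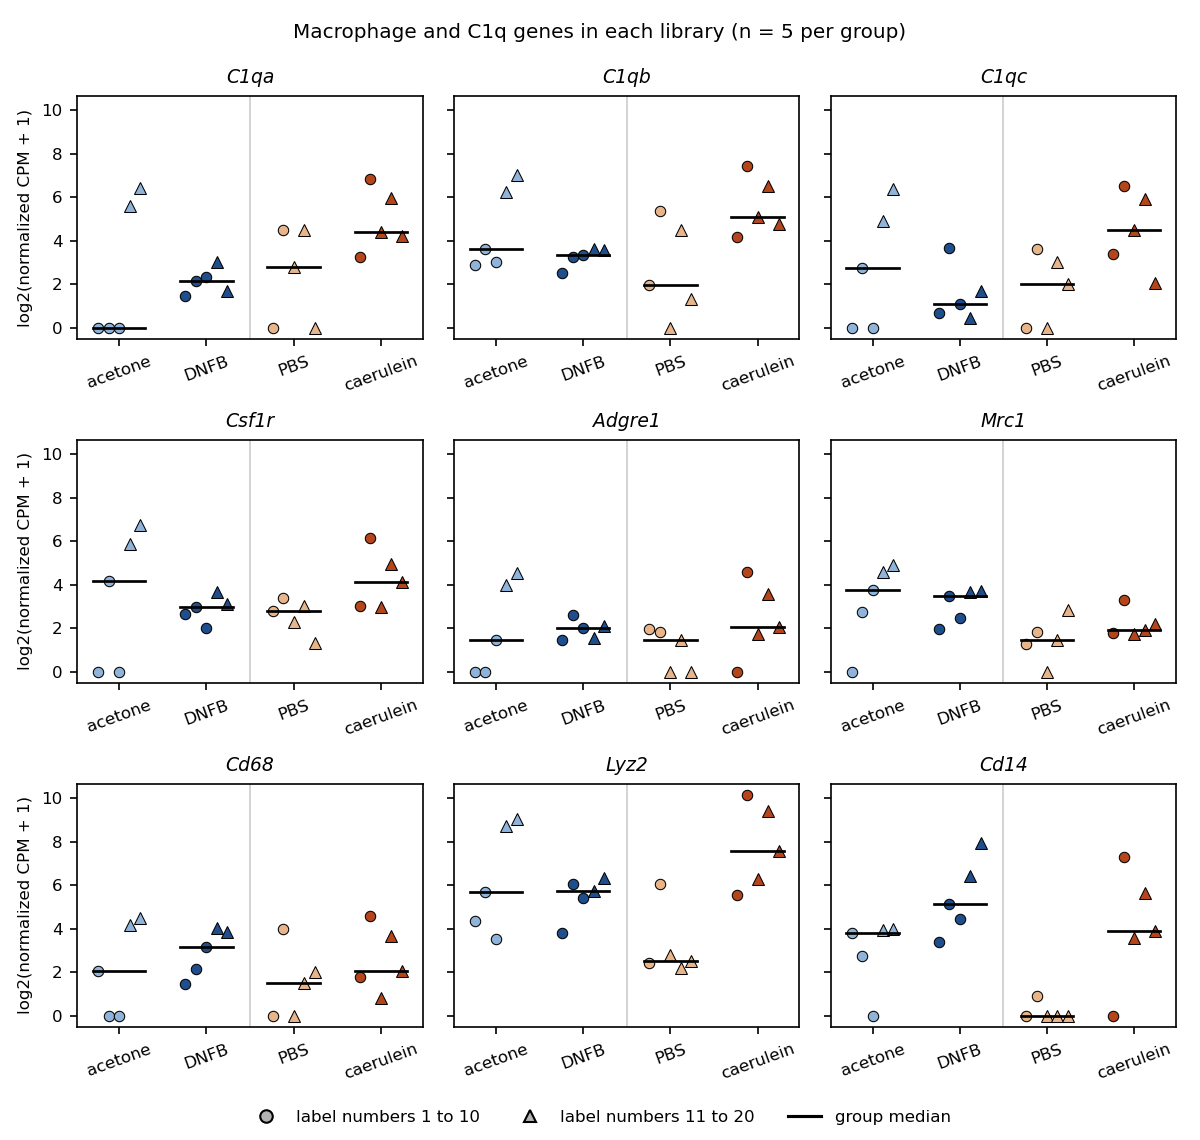
Level of each gene in every library, as log2(normalized CPM + 1), by group. Circles are libraries with label numbers 1 to 10, triangles those with numbers 11 to 20, and lines the group medians (n = 5 each). In skin, acetone libraries 11 and 12 lie above the DNFB libraries for all genes but Cd14, and in pancreas Lyz2 spans 46.0 to 1135 normalized CPM with caerulein against 3.60 to 65.4 with PBS.

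The comparison of DNFB with acetone asks how the genes differ in chronic dermatitis. None of the 9 genes passed the test with all 10 skin libraries. The filter on low counts left 5 of them, and 0 of these 5 passed an adjusted p of 0.05 (edgeR, quasi-likelihood test), where 0.0275% of all 7265 genes tested rose and 0.0138% fell. At an unadjusted p under 0.05 there were 3 of the 5, 1 higher and 2 lower, against 2.95% and 2.86% of all genes. DESeq2, which tested all 9, called 0 of them, against 0.164% of all genes higher and 0.173% lower. At an unadjusted p under 0.05 DESeq2 had 5 of the 9, 1 higher and 4 lower, against 4.46% and 3.11% of all genes. The fitted log2 fold change of Lyz2 was -2.05 (standard error 0.93, adjusted p = 0.822, edgeR), that of C1qb -2.43 (standard error 0.75, adjusted p = 0.523, edgeR), and that of Cd14 2.92 (standard error 0.88, adjusted p = 0.495, edgeR). Mrc1 stood at -0.98 and Cd68 at -0.31 (adjusted p = 0.944 and 0.976, edgeR). The 4 genes that did not pass the filter had fitted values, without a test, from -1.82 for Adgre1 to -3.48 for C1qc. The median over the 5 tested members was -0.98, against 0.02 over all genes tested.

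Without acetone libraries 11 and 12 the fitted direction turned in 8 of the 9 genes. Lyz2 then stood at 0.96 (adjusted p = 0.744, edgeR), Cd68 at 3.26 (adjusted p = 0.398, edgeR) and Mrc1 at 0.31 (adjusted p = 0.947, edgeR), and Csf1r, C1qb, C1qc and Adgre1 had fitted values above 0 without a test. C1qa had 36 counts over the DNFB libraries against 0 over the 3 acetone libraries that remained. With the acetone group set at 3 counts in all, the ratio was 1.75. This value covers counting error only, and 3 counts in each acetone library would reverse its direction. The direction of C1qa was therefore not established in this comparison. None of the 4 members that passed the filter was called by edgeR, which called 0% of 7702 genes higher and 0.013% lower in this fit. Cd14 kept its direction, at 3.80 on the log2 scale (standard error 1.19, adjusted p = 0.297, edgeR), and was called by DESeq2 at 4.05 (standard error 1.03, adjusted p = 0.00497), which called 7.67% of the 2111 genes it tested higher and 0.805% lower. It was the only member that DESeq2 called there, and no other member but Lyz2 received an adjusted p.

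The label numbers split the skin libraries the same way. Among libraries 11 to 14, C1qc fell by 5.83 on the log2 scale (standard error 0.99, adjusted p = 0.00722, edgeR, 2 libraries in each group). C1qa fell by 3.69, C1qb by 3.22, Csf1r by 3.05, Adgre1 by 2.96 and Lyz2 by 2.91, with adjusted p-values from 0.0213 to 0.0494 (edgeR). The acetone libraries of this fit were those already set apart by their high counts of these genes. The p-values of these falls are therefore not independent of those known counts, and no conclusion is drawn from them. Cd14 rose by 3.39 there (standard error 0.82, adjusted p = 0.0280, edgeR). Mrc1 and Cd68 did not pass, at -1.16 and -0.47. In that fit 1.79% of all genes tested fell and 6.87% rose. Among libraries 1 to 6, 0 of the 9 genes and 0% of 4035 genes tested were called by edgeR. Only Lyz2, at 0.59, and Cd14, at 1.93, passed the filter there (adjusted p = 0.995 and 0.693, edgeR). A fit of all 10 libraries with a term for the 2 sets of label numbers called none of the 9 genes, 0.151% of all genes higher and 0.0138% lower, with Cd14 at 2.75 (adjusted p = 0.362, edgeR) and C1qb at -1.60 (adjusted p = 0.799, edgeR). What the label numbers stand for is not stated in the sources used here.

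**Figure D2:**
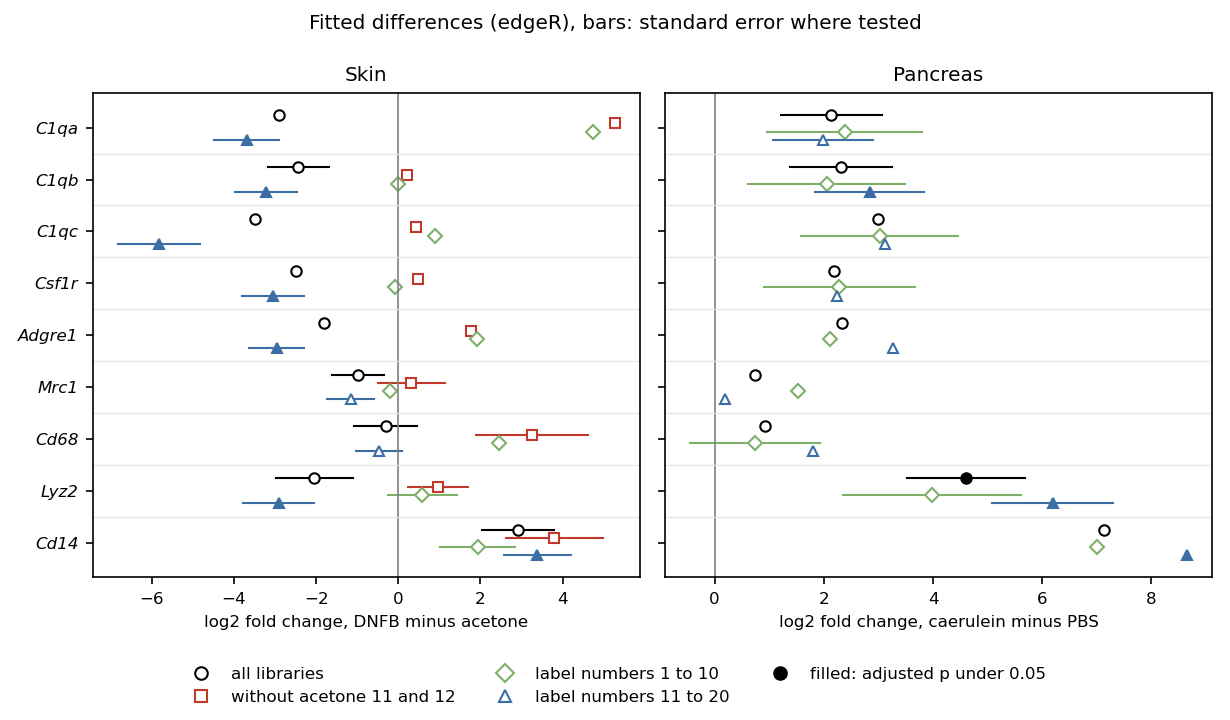
Fitted log2 fold change of each gene in skin (DNFB minus acetone) and pancreas (caerulein minus PBS), with all libraries, without acetone libraries 11 and 12 (skin) and within each set of label numbers. Bars are standard errors where a gene was tested and no group was at 0, and filled symbols have an adjusted p under 0.05 (edgeR). In skin, the values of C1qa, C1qb, C1qc, Csf1r, Adgre1, Mrc1, Cd68 and Lyz2 lie below 0 with all libraries and above 0 without acetone libraries 11 and 12 (that of C1qa against 0 acetone counts), while those of Cd14 lie between 1.93 and 3.80.

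Exact permutation tests of the mean log2 level, which need no filter, gave a p under 0.05 in skin for Cd14 alone (difference 2.65, p = 0.0397, two-sided exact permutation test). Of 43251 genes with a count in skin, 3.6% were higher and 1.6% lower at that level, and adjusted over all of them the p of Cd14 was 0.915. Without acetone libraries 11 and 12, Adgre1 and C1qa were higher in every DNFB library than in the 3 acetone libraries (exact permutation p = 0.0179 each, the smallest that 56 regroupings allow, adjusted p = 0.524). For Adgre1 the margin was 1.79 normalized CPM in DNFB library 4 (3 counts) against 1.78 in acetone library 3 (1 count). Libraries 11 and 12 were left out with their high counts of these genes known, so these p-values are not independent of that choice. In that comparison 1.91% of all genes did not overlap in this direction, and 2.09% were higher and 3.64% lower at an exact p under 0.05. In the 3 acetone libraries a count of 0 allows up to 3 counts, which is 19.6 to 32.2 CPM of usable depth, so lower levels of these genes were not detectable there.

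In pancreas, all 9 genes had a higher mean with caerulein than with PBS, and the 3 caerulein libraries with the greatest usable depth held most of the counts. Lyz2 held 3, 75, 3, 2 and 3 counts in PBS libraries 7, 8, 15, 16 and 17, and 38, 5722, 98, 2609 and 970 in caerulein libraries 9, 10, 18, 19 and 20. In normalized CPM, PBS library 8 stood at 65.4 and the other PBS libraries between 3.60 and 5.95, and the caerulein libraries stood at 46.0, 1135, 76.4, 672 and 191. The groups overlapped by 1 library, caerulein 9, which lay below PBS 8.

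The C1q chains had most of their pancreas counts in caerulein libraries 10 and 19. C1qb held 2, 47, 0, 12 and 1 counts with PBS and 14, 880, 43, 358 and 133 with caerulein. C1qa held 0, 25, 3, 12 and 0 counts with PBS and 7, 574, 26, 236 and 89 with caerulein. C1qc held 0, 13, 0, 4 and 2 counts with PBS and 8, 456, 28, 232 and 16 with caerulein. In caerulein library 20, C1qc stood at 3.15 normalized CPM, below PBS libraries 8 and 16 at 11.3 and 7.19, while C1qa stood at 17.5 and C1qb at 26.2. PBS libraries 8 and 16 held most of the PBS counts of each chain, and C1qb averaged 68.7 ± 66.1 normalized CPM in caerulein-treated and 13.4 ± 17.7 in PBS-treated pancreas (SD, n = 5 each).

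Csf1r held 4, 11, 2, 4 and 1 counts with PBS and 6, 349, 9, 115 and 85 with caerulein. Adgre1 held at most 3 counts in any PBS library and 0, 117, 3, 42 and 16 with caerulein. Cd68 held 0, 17, 0, 1 and 2 counts with PBS and 2, 116, 1, 46 and 16 with caerulein. Mrc1 was the least counted of the 9 genes in caerulein-treated pancreas, with 2, 45, 3, 11 and 18 counts against at most 4 with PBS. Caerulein libraries 9 and 18, the shallowest of their group, overlapped the PBS libraries for each of these 4 genes in normalized CPM. For Cd68 and Mrc1, caerulein libraries 19 and 20 also lay inside the PBS range. Cd68 stood there at 11.8 and 3.15, against 14.8 in PBS library 8. Mrc1 stood at 2.83 and 3.54, against 6.18 in PBS library 17.

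Cd14 was nearly absent from PBS-treated pancreas, with 0, 1, 0, 0 and 0 counts, and held 0, 792, 14, 190 and 70 counts with caerulein. With 1 count in all PBS libraries together, the ratio of the summed levels was 234 (95% exact interval 41.9 to 9250, which covers counting error only). Caerulein library 9 also held no Cd14 count, where the limit is 34.0 CPM of usable depth.

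The comparison of caerulein with PBS asks how the genes differ in chronic pancreatitis. Lyz2 rose by 4.60 on the log2 scale (standard error 1.08, adjusted p = 0.0166, edgeR), from 16.8 ± 27.2 to 424 ± 470 normalized CPM (SD, n = 5 each), and was higher than the PBS median in 5 of 5 caerulein libraries. It was the only member called. The filter left 3 of the 9 genes, and 1 of these 3 rose, where 8.14% of all 946 genes tested rose and 4.02% fell. C1qb stood at 2.31 and C1qa at 2.14 (standard error 0.93 each, adjusted p = 0.112 and 0.132, edgeR). The 6 genes that did not pass the filter had fitted values, without a test, between 0.74 for Mrc1 and 7.14 for Cd14. The median over the 3 tested members was 2.31, against -0.00 over all genes tested. Most counts of these 3 lay in the caerulein libraries (for Lyz2 9437, against 86 with PBS). The filter may thus have favoured members that rise, so nothing is read from this median. Without PBS library 7, 15, 16 or 17 in turn, the call of Lyz2 was lost (log2 fold change 4.07 to 4.14, adjusted p from 0.0576 to 0.0727, edgeR), and without PBS library 8 its value was 6.50 (adjusted p = 0.00942, edgeR).

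DESeq2 tested all 9 and called Lyz2 (5.04, adjusted p = 0.000681), Cd14 (7.71, adjusted p = 0.00589), C1qc (3.61, adjusted p = 0.0189) and Csf1r (2.86, adjusted p = 0.0205), with 7.44% of the 8618 genes it tested called higher and 1.09% lower. C1qa, C1qb and Adgre1 had adjusted p-values of 0.0718, 0.0670 and 0.0805 by DESeq2. Exact permutation tests gave a p under 0.05 for Lyz2 (p = 0.0159), Csf1r (p = 0.0476) and Cd14 (p = 0.0476), each higher with caerulein (two-sided exact permutation test, smallest possible p = 0.00794). Of 38895 genes with a count in pancreas, 4.69% were higher and 2.35% lower at that level, and the adjusted p was 0.676 for each of the 3. Among libraries 15 to 20, edgeR called Lyz2, C1qb and Cd14 higher, where 21.7% of the 1196 genes tested rose and 12.5% fell, and among libraries 7 to 10 it called none of the 9, where 0.072% of 1388 genes rose and 0.36% fell.

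Usable depth differed between the pancreas groups, from 70021 to 202059 with PBS and from 88226 to 592100 with caerulein. The 9 genes together took 59.4, 1012, 114, 476 and 144 CPM of usable depth in PBS libraries 7, 8, 15, 16 and 17. They took 873, 16276, 1607, 10184 and 2386 in caerulein libraries 9, 10, 18, 19 and 20. Caerulein libraries 9 and 18, with usable depths of 88226 and 140017 inside the PBS range, thus lay above 4 and 5 of the 5 PBS libraries. The acinar markers fell at the same time, with 7 of 8 called lower (edgeR) against 4.02% of all genes tested, among them Sycn at -5.80 and Pnlip at -4.59. The summed level of the 8 was 54887 to 256262 CPM of usable depth with PBS and 5981 to 70177 with caerulein. The part of this shift in the values of the 9 genes was not tested.

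**Figure D3:**
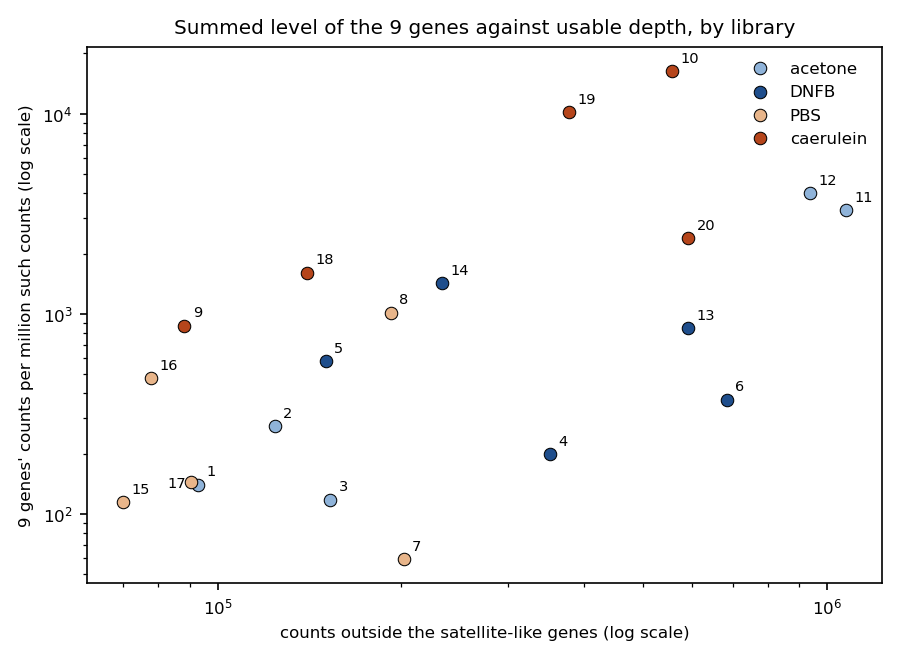
Summed level of the 9 genes, as CPM of usable depth (vertical, log scale), against usable depth, the counts outside the satellite-like genes (horizontal, log scale), for each library with its label number. Acetone libraries 11 and 12 are the deepest of all and reach 3305 and 4009 CPM, while acetone libraries 1, 2 and 3 lie between 117 and 274, and the caerulein libraries lie between 873 and 16276.

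The 2 tissues were set against each other in a fit of all 20 libraries, as the DNFB difference minus the caerulein difference. All 9 fitted values were below 0, from -0.91 for Cd68 to -6.24 for Lyz2. Of the 8 members tested, 0 passed (edgeR), where 0.048% of all 8336 genes were called higher and 0.216% lower, and 6 had an unadjusted p under 0.05, all lower, against 6.32% of all genes higher and 12.2% lower. Lyz2, C1qc, Csf1r, C1qb and C1qa had adjusted p-values of 0.0645, 0.0669, 0.0691, 0.0799 and 0.0857 (edgeR). DESeq2 called 4 of the 9 lower, Lyz2 (-7.50), C1qc (-7.26), Csf1r (-5.62) and C1qb (-5.54), where 1.67% of 16186 genes were called higher and 3.73% lower. Without acetone libraries 11 and 12, Lyz2 stood at -3.49, Csf1r at -1.77, C1qb at -2.04 and C1qc at -2.53, Cd68 turned to 2.38, C1qa had a fitted value above 0 against 0 counts in the acetone libraries left, and edgeR called none of the 9 and 0% of all genes.

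The control tissues, acetone-treated skin and PBS-treated pancreas, were compared in the same fit. None of the 8 members tested passed (edgeR), where 6.83% of all genes were higher in skin and 3.71% lower. DESeq2 also called 0 of the 9, against 7.74% of all genes higher in skin and 4.43% lower. An unadjusted p under 0.05 was reached by 1 member with edgeR, Cd14, against 17.8% of all genes higher and 9.51% lower, and by 4 members with DESeq2, against 18.1% and 9.65%. Without acetone libraries 11 and 12 the fitted direction turned in most members, with 1 of the 9 above 0 and 8 below, against 7 above and 2 below with all libraries. In that fit 0 of the 8 tested passed (edgeR), where 0.767% of 9385 genes were higher in skin and 0.884% lower at an adjusted p under 0.05. Cd68, C1qb and C1qa were lower at an unadjusted p under 0.05, Cd68 at -3.85, C1qb at -2.34 and C1qa with 0 counts in the acetone libraries left. The share of all genes at that unadjusted level was not computed for that fit, so nothing is read from these members. Skin and pancreas were normalized in separate fits for the levels given above, so levels are compared between genes only within a group.

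Levels per kilobase of exon were taken on another scale, with the TMM factors of the fit of all 20 libraries. On it, Lyz2 had the highest median of the 9 genes in acetone-treated skin (21.4 normalized CPM per kilobase), DNFB-treated skin (23.6) and caerulein-treated pancreas (195). C1qb came next in acetone-treated skin (5.76) and caerulein-treated pancreas (57.1), and Cd14 came next in DNFB-treated skin (11.9). In PBS-treated pancreas C1qa led at 8.13, Lyz2 followed at 5.75, and Cd14 was last with a median of 0. C1qa, first with PBS, had a median of 0 in acetone-treated skin, and C1qc was the lowest in DNFB-treated skin (0.375). The ranges of neighbours in each of these orders overlapped over the 5 libraries.

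Within a library, shares of the 9 genes' counts do not depend on the scaling between libraries. Lyz2 made up 21.1% to 43.9% of these counts in DNFB-treated skin and 43.6% to 68.6% in caerulein-treated pancreas. The 3 C1q chains together made up 4.22% to 17.1% with DNFB and 16.8% to 43.1% with caerulein. Cd14 made up 21.6% to 64.8% with DNFB and 0% to 8.75% with caerulein, ranges that do not overlap. Of the counts of Cd14 and the C1q chains together, Cd14 took 57.1%, 58.8%, 58.5%, 81.8% and 93.9% in DNFB libraries 4, 5, 6, 13 and 14. In acetone libraries 11 and 12 its share was 8.58% (95% exact binomial interval 6.78 to 10.7) and 4.74% (3.59 to 6.13). Acetone libraries 1, 2 and 3 held 6, 8 and 4 such counts, too few to place them, with exact intervals of 22.3% to 95.7%, 3.19% to 65.1% and 0% to 60.2%. The lowest DNFB share, 57.1% of 28 counts, had an interval of 37.2% to 75.5%, above those of acetone libraries 11 and 12. In caerulein libraries 10, 18, 19 and 20 the share was 29.3%, 12.6%, 18.7% and 22.7%, while caerulein library 9 held 0 of 29 such counts (0% to 11.9%). PBS libraries 8 and 16 held 1 of 86 and 0 of 28, with upper limits of 6.31% and 12.3%, and the other PBS libraries held 2 or 3 such counts. These intervals cover counting error only and treat each count as independent. The Smart-Seq2 protocol adds no molecular identifiers, so amplified copies of a molecule can be counted apart and the intervals may be too narrow.

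**Figure D4:**
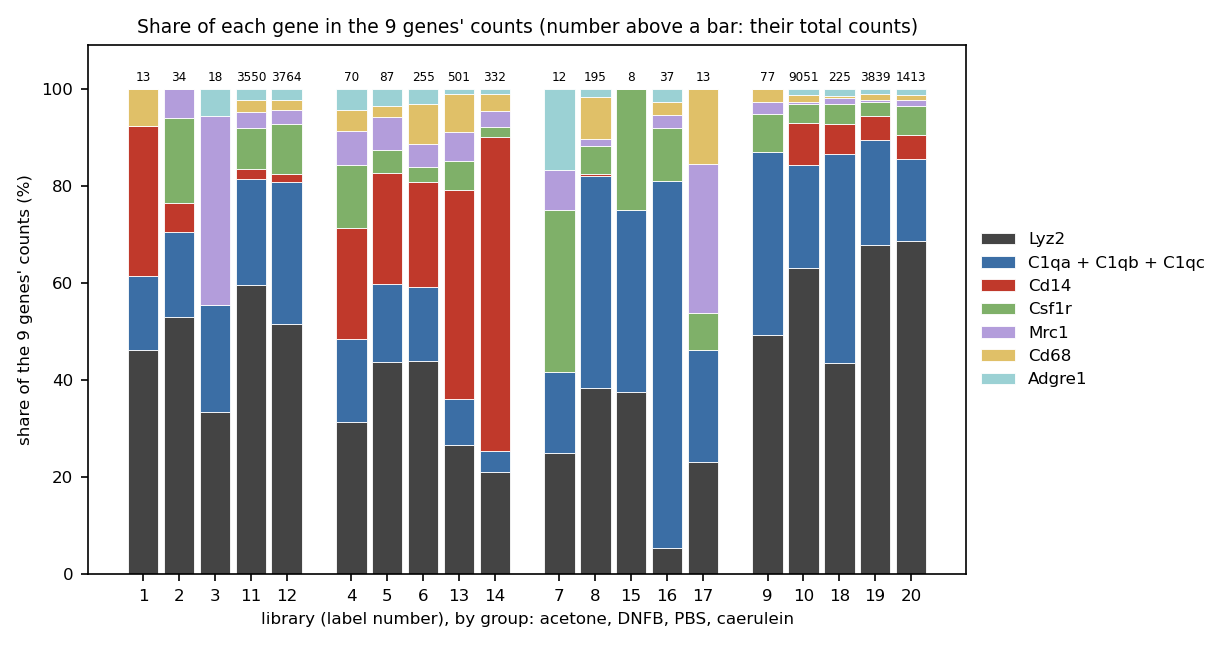
Share of each gene in the counts of the 9 genes (vertical, %), for every library (horizontal, label numbers by group), with the total counts of the 9 genes above each bar. Cd14 (red) makes up 21.6% to 64.8% in the DNFB libraries and at most 8.75% in the caerulein libraries. The bars of acetone libraries 1, 2 and 3 rest on 13, 34 and 18 counts, and those of PBS libraries 7, 15 and 17 on 12, 8 and 13.

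Of the counts of Lyz1 and Lyz2 together, Lyz1 took 0% to 14.3% in acetone-treated skin (median 9.38%) and 0% to 2.56% in DNFB-treated skin. The acetone range thus enclosed the DNFB range. In caerulein-treated pancreas the share was 0.522% to 4.85%. In acetone libraries 11 and 12 Lyz1 held 219 and 203 counts beside 2117 and 1942 of Lyz2.

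Other macrophage genes were taken from a list of 28. In skin 13 of them were tested and 0 were called by edgeR, with a median log2 fold change of 0.10, and 14 were tested without acetone libraries 11 and 12, with a median of 1.18 against 0.16 over all genes. The 3 with the highest level were Gpnmb, a glycoprotein of lipid-laden macrophages, whose normalized CPM were 30.6 ± 29.0 in acetone-treated and 69.2 ± 55.9 in DNFB-treated skin, Ctss, the lysosomal protease cathepsin S (31.9 ± 26.9 and 35.8 ± 16.5), and Fcer1g, the signalling chain of Fc receptors (15.4 ± 13.5 and 38.1 ± 42.6, SD, n = 5 each). Which cells of the epidermis these transcripts came from was not tested. DESeq2 called 2 of the 28 in skin, Clec7a, the receptor for fungal glucans, higher (3.20, adjusted p = 0.0029) and Folr2, a folate receptor of resident macrophages, lower (-4.94, adjusted p = 0.0247), and Folr2 held 307 counts over the acetone and 5 over the DNFB libraries. Of all genes tested in skin, DESeq2 called 0.164% higher and 0.173% lower. Without acetone libraries 11 and 12 the fitted value of Clec7a was 3.40 and that of Folr2 -0.27 (edgeR). In pancreas 4 of the 28 were tested, and Marco, a scavenger receptor for bacteria, rose (3.81, standard error 1.07, adjusted p = 0.030, edgeR). In that fit edgeR called 8.14% of all genes tested higher. DESeq2 tested 23 of the 28 in pancreas and called 9 higher and 0 lower, where it called 7.44% of all genes higher and 1.09% lower.

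Among 28 other complement genes, 8 were tested in skin and 0 called by edgeR. The 3 with the highest level were Cr1l, a regulator of C3 on cell surfaces, at 26.2 ± 16.3 with acetone and 27.3 ± 8.16 with DNFB, Serping1, the inhibitor of C1r and C1s (26.0 ± 28.7 and 11.8 ± 4.65), and Cfp, properdin (27.9 ± 34.9 and 5.67 ± 2.57 normalized CPM, SD, n = 5 each). DESeq2 tested 22 of the 28 in skin, where it called 0.173% of all genes lower. It called C3 and C4b lower (-3.21 and -4.0, adjusted p = 0.0426 and 0.0174, DESeq2). Without acetone libraries 11 and 12 their fitted values were -1.42 and -1.86 (edgeR), and 5 of the 28 were tested and 0 called, also at an unadjusted p under 0.05, with a median of 1.19 against 0.16 over all genes. In pancreas 7 of the 28 were tested and 3 rose, Cfb, the protease of the alternative pathway (3.38, adjusted p = 0.033, edgeR), Cfp, which steadies its convertase (3.11, adjusted p = 0.035, edgeR), and Serping1 (2.93, adjusted p = 0.039, edgeR). In that fit 8.14% of all genes tested rose. The 7 had a median of 2.0 against -0.00 over all genes. The filter may favour genes high with caerulein, so nothing is read from that median. DESeq2 tested 17 of the 28 and called 11 higher and 0 lower, against 7.44% of all genes higher and 1.09% lower. Among the 11 were C1ra and C1s1, the proteases that bind C1q (4.24 and 3.24, adjusted p = 0.0054 and 0.0374, DESeq2).

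Of 8 genes of the CSF1 receptor axis, 2 were tested in skin and 0 in pancreas, and neither edgeR nor DESeq2 called any. Runx1, a transcription factor of blood cells, stood at -0.60 in skin (adjusted p = 0.965, edgeR). Of 8 genes of the TLR4 receptor, with which CD14 acts, only the adaptor gene Myd88 was tested in skin (-0.41, adjusted p = 0.976, edgeR). In pancreas edgeR tested none of the 8. DESeq2 tested 5 of them and called Myd88 (4.25, adjusted p = 0.0249) and Tlr2 (4.11, adjusted p = 0.0438) higher, against 7.44% of all genes.

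Markers of other cells moved with some of these libraries. For 8 neutrophil markers, the summed level was 19.5 to 129 CPM of usable depth with acetone and 145 to 2935 with DNFB, highest in DNFB libraries 13 and 14, where Cd14 was highest too. S100a8, a calcium-binding protein of neutrophils that inflamed keratinocytes also make, rose in skin (6.20, adjusted p = 0.046, edgeR), a call that was lost without acetone libraries 11 and 12, where it stood at 5.86, while Ly6g, a defining surface marker, held 3 counts over the acetone and 7 over the DNFB libraries. DNFB library 14 also had a low keratinocyte level, 797 CPM against 3782 to 9997 in the other DNFB libraries. For 6 fibroblast markers, acetone libraries 11 and 12 held 2277 and 2535 CPM, against 462 to 1433 in acetone libraries 1, 2 and 3 and 432 to 731 with DNFB. For 9 Langerhans and dendritic cell markers, acetone libraries 11 and 12 held 1936 and 3846 CPM, against 215 to 386 in the other acetone libraries and 418 to 720 with DNFB, and Cd207, which defines Langerhans cells, held 32 counts over the acetone and 3 over the DNFB libraries. In pancreas 4 of these 9, the MHC class II genes H2-Ab1, H2-Eb1, H2-Aa and Cd74, rose with caerulein (3.69, 3.29, 2.61 and 2.66, adjusted p from 0.012 to 0.034, edgeR). Of all genes tested in that fit 8.14% rose. Of 37 markers of monocytes, T cells, B cells, mast cells, all leukocytes, endothelium and ducts, edgeR tested 11 in skin and 4 in pancreas and called 0. In each tissue 1 was higher at an unadjusted p under 0.05, against 2.95% of all genes in skin and 17.2% in pancreas. DESeq2 tested 29 in skin and called 2 higher, against 0.164% of all genes. In pancreas it tested 25 and called 9 higher, against 7.44% of all genes. The part of these cells in the values of the 9 genes was not tested.

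The genes whose levels ran closest to the summed level of the 9 were ranked by Pearson's r of log2 levels over the 10 libraries of a tissue, which share the depth differences described above. In skin they were Ccl6 (r = 0.958), Fn1 (0.952), Lima1 (0.941), Cd74 (0.933) and Nfkbiz (0.931), of 7260 genes ranked, where Ccl6 encodes a myeloid chemokine and Fn1 fibronectin. In pancreas they were Npc2 (0.992), Cfp (0.984), Fn1 (0.982), Apoe (0.974) and H2-K1 (0.971), of 943 genes ranked, where Npc2 and Apoe encode carriers of cholesterol and lipid. These values are descriptions without a test.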

How the data were processed

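Libraries were made from epidermis or pancreas with a modified Smart-Seq2 and NexteraXT protocol. Per the submitters' processing notes, reads were mapped to mm10 (GRCm38) by STAR 2.5.3 and quantified by RSEM 1.3.1. The deposited values are the resulting expected counts of each gene, without normalization, and 94.7% of them were whole. The gene annotation is not given in the sources used here. Names and positions came from GENCODE M21 (55144 of 55471 genes named), and 0 columns of per-sample values were left out.

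Here the expected counts were rounded. In each tissue 5 inflamed and 5 control libraries were fitted with edgeR 4.0.16 (R 4.3.3) without covariates, after filterByExpr (minimum count 10) and TMM, and glmQLFTest p-values were adjusted over all genes tested (Benjamini-Hochberg, threshold 0.05). The study used DESeq2, run here as an alternative (1.42.0, size factors, independent filtering). Genes under the filter were given fitted values with a common dispersion and no test. Exact permutation tests (numpy 2.4.6) used log2(normalized CPM + 1 count of the median library) for every gene with a count. A floor is 3 counts, between 2.79 and 42.8 CPM of usable depth. Genes were called satellite-like where 50% or more of their words of 15 bases also occur in Gm10800, Gm10801 or Gm21738. The count and permutation tests were tested on simulated data.

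The 9 genes and all gene lists were chosen with earlier results of these data known. All 9 are named. From each other list, genes past the threshold are named (at most 4), or the 3 with the highest level where none passed, and genes that only DESeq2 called were named after their values were seen. A gene that this rule names is not reported here. Alternatives were DESeq2, no filter, library totals in place of TMM, no satellite-like genes, label numbers as a term or apart, and leaving out libraries. DESeq2 and exact tests without acetone libraries 11 and 12 were added after seeing the data.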

Additional observations from a re-analysis of the deposited data

Results flagged for a closer look

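In each of the 36 sets of 5 libraries (9 genes in 4 groups), levels were taken as log2(normalized CPM + 1 count of the median library), and the highest or lowest library was flagged where its gap to the nearest other library took more than 0.71 of the whole range. This flagged 3 sets. The 9 genes share the same libraries and many counts are tied at 0, so the usual chance figure of about 1.8 does not apply here. Lyz2 in PBS library 8 stood at 65.4 normalized CPM, with the gap to the next PBS library at 0.845 of the range on that log2 scale. Mrc1 in caerulein library 10 stood at 8.93 normalized CPM, with a gap of 0.718 of the range. Cd14 in PBS library 8 stood at 0.872 normalized CPM, which is 1 count where the other PBS libraries held 0, so the gap is 1, the whole range.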

How the results depend on the processing

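The values of the 9 genes are limited by usable depth and by single libraries. Scaling by library totals moved the median log2 fold change over all genes tested from -0.00 to 1.86 in pancreas, from -0.38 to -2.36 for the difference between the tissues and from 0.30 to 2.95 between the control tissues, so values under that scaling are to be read against those medians, and no fitted direction of a member in skin or pancreas turned under it. The causes of the changes below were not tested.

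Members called numbered 0 in skin with all libraries, 7 among label numbers 11 to 20 (where 6.87% of all genes tested rose and 1.79% fell), 2 lower with no filter on low counts (0.157%) and 1 higher by DESeq2 without acetone libraries 11 and 12 (7.67%). In pancreas 1 was called, 4 by DESeq2 (where 7.44% of all genes tested rose), 3 among label numbers 11 to 20 (21.7%), 0 among label numbers 1 to 10, 3 of 3 tested with library totals (58.6%), 7 with no filter (3.18%), and from 1 to 4 when single libraries were left out. There were 4 without caerulein 9 (where 153 of all 1542 genes tested rose) and 3 without PBS 8 (192 of 1331). There were 2 without caerulein 18 (85 of 1373) or 20 (28 of 1013). For the difference between the tissues 0 were called, 4 by DESeq2 (where 3.73% of all genes tested were lower), 6 among label numbers 11 to 20 (9.6%), 7 with no filter (2.07%), 2 without the satellite-like genes (0.737%), and from 0 to 6 when single libraries were left out. There were 6 without acetone 3 (where 282 of all 9506 genes tested were lower) or caerulein 9 (204 of 9761). There were 5 without PBS 8 (165 of 9755), and 3 without acetone 1 (58 of 9502) or caerulein 18 (118 of 9702). Between the control tissues 0 were called, 7 among label numbers 11 to 20 (where 17.9% of all genes tested were higher in skin), 6 with library totals (74.5%), 4 with no filter (4.53%), and from 0 to 1 when single libraries were left out. The 1 was without PBS 8, where 581 of all 9755 genes tested were higher in skin. In each fit among label numbers 11 to 20 that includes skin, the acetone libraries were those set apart by high counts of these genes. Apart from those of Cd14, the calls in these fits are therefore not independent of those known counts.

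Genes called numbered 3 in skin, 78 by DESeq2, 975 among label numbers 11 to 20, 0 among label numbers 1 to 10, 0 with library totals, 108 with no filter, 12 with a term for label numbers, 6 without the satellite-like genes, 1 without acetone libraries 11 and 12 (179 by DESeq2), and from 0 to 34 when single libraries were left out (34 without acetone 3). In pancreas 115 were called, 735 by DESeq2, 408 among label numbers 11 to 20, 6 among label numbers 1 to 10, 572 with library totals (554 higher and 18 lower, against 77 and 38), 1297 with no filter, and from 14 (without PBS 7) to 280 (without PBS 8) when single libraries were left out.

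Fitted directions turned in skin without acetone libraries 11 and 12, where Lyz2 stood at 0.96 (1.21 by DESeq2), Cd68 at 3.26 (3.64), Adgre1 at 1.76 (2.05), Csf1r at 0.47 (0.66), C1qa at 5.27 (3.49, against 0 acetone counts), C1qb at 0.21 (0.53), C1qc at 0.44 (0.86) and Mrc1 at 0.31 (0.64). The differences in the exact permutation tests turned as well, to 0.92 for Lyz2, 1.27 for Csf1r, 1.82 for C1qa, 0.091 for C1qb, 0.50 for C1qc and 0.79 for Mrc1. Among label numbers 1 to 10, Lyz2 stood at 0.59, Cd68 at 2.46, Adgre1 at 1.91, C1qc at 0.90 and C1qa at 4.75, the last against 0 acetone counts. Cd68 in skin also turned to 0.40 with a term for label numbers and lay between -0.67 and 0.20 when single libraries were left out, above 0 without acetone library 11 (0.017) or 12 (0.20). For the difference between the tissues, Cd68 and C1qa turned to 1.81 and 2.20 among label numbers 1 to 10 and to 2.38 and 2.66 without acetone libraries 11 and 12. Each fitted value of C1qa here is against 0 acetone counts, depends on the fit's small added count and is no bound. No paired analysis was possible because no label number occurs in more than 1 group.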
